A study of Mus musculus with 4 samples.

Results

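The cells described here are microglia, the resident macrophages of the brain, in which Lpl and Apoc1 together gave at least 2 unique molecular identifiers (UMIs, each standing for 1 captured RNA molecule). They were found among immune cells from mouse brains that carried GL261, a mouse glioma line, and each cell's RNA was sequenced under its own barcode. A barcode was kept as a cell with at least 200 genes and at most 10% mitochondrial UMIs. It was taken as a microglial cell with at least 4 UMIs over P2ry12, Tmem119, Sall1, Gpr34 and Sparc, none of Ccr2 and at most 1 over Cd3d, Cd3e and Cd3g. Of 28661 barcodes 26014 were kept, 3547 of these were microglia, and 1200 of those met the limit on Lpl and Apoc1. The other 2347 microglia, with 0 or 1 such UMI, are called other microglia below. The levels of the rule's own genes are a description of the choice and not a finding.

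The study had 4 groups with 1 library each. WT mice and IFNaR-/- mice (KO below, lacking the type I interferon receptor) were left untreated and their cells sorted on day 20 after the tumour cells were injected. The treated mice of both genotypes got anti-PD1, which blocks a checkpoint receptor of T cells, at 200 ug per mouse on days 7, 11, 15 and 19, and sorting followed on day 25. The tissue label and the dissociation text name brain, while the sorting text speaks of lung cells, and brain was taken as the tissue. The file name of the untreated WT library names both genotypes, and the library was grouped by its labels. All groups carried the tumour, and all sorted cells were live and CD45.2+. For the anti-PD1 groups CD3+ and CD3- cells were combined in equal parts. Cell suspensions were pooled, and the number of mice in a pool, their ages, and the receptor subunit and stretch deleted are not given in the sources used here. With 1 library per group there is no spread between animals to measure, so no test between groups was run and no p-value is given. The 95% intervals cover counting error only.

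Lipoprotein lipase, the product of Lpl, releases fatty acids from the triglycerides of lipoprotein particles, and Apoc1 encodes a small apolipoprotein of such particles. Around plaques, damaged myelin and tumours, microglia are known to take on a disease-associated programme that includes Apoe, Lpl, Cst7, Spp1, Igf1 and Itgax, while homeostatic genes such as P2ry12, Tmem119 and Cx3cr1 go down. Type I interferons act through a receptor of the subunits Ifnar1 and Ifnar2, and a complex that contains Stat2 and Irf9 then activates antiviral genes. In the GRCm38 annotation (GENCODE vM21) Lpl lies on chromosome 8 from 68880491 to 68907448 on the plus strand. Apoc1 lies on chromosome 7 from 19689481 to 19692660 on the minus strand, in a cluster with Apoe (19696109 to 19699188), Apoc4 and Apoc2 that spans 27610 bases.

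The Lpl/Apoc1 microglia numbered 80 in the WT library without treatment, 76 in its KO counterpart, 338 in WT mice given anti-PD1 and 706 in KO mice given it, the order of every series of 4 values below. Their median depth was 11524, 14036, 18441 and 10297 UMIs per cell, against 7058, 7372, 11010.5 and 5423 in the other microglia, so the chosen cells were the deeper ones in every library. The libraries also differed in kind. In T cells the ratio of V segment to constant region UMIs of the T cell receptor was 0.0182, 0.0158, 1.98 and 0.0844, although the labels name the same 5′ kit for all. Which kit each library used was not settled here, and in the anti-PD1 pair genotype cannot be told apart from this difference. Between anti-PD1 and untreated libraries, treatment, day, sorting mix and software version changed together and cannot be told apart. The anti-PD1 libraries shared 95 barcodes, 1 of them an Lpl/Apoc1 cell in both, and the other pairs of libraries shared 0 to 3. The mitochondrial limit removed 21.0% and 24.2% of barcodes in the untreated libraries, and 0.693% and 3.29% in the anti-PD1 libraries.

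Microglial markers outside the rule were present in the chosen cells. Of 34 homeostatic microglial genes, 33 or 34 were detected in each library. Their summed level was 29112, 27905, 21479.9 and 25448 CPM (counts per 1000000 UMIs of the group), against 6118, 6989.9, 7192 and 7147 CPM in Ccr2+ macrophages of the same libraries. Cx3cr1, the fractalkine receptor, stood at 1929, 1892, 572 and 1145 CPM and at 137, 169, 71.3 and 109.8 CPM in the macrophages.

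The anti-PD1 cells lay nearer to the microglial limit. The median sum of the 5 rule markers was 32 and 29 UMIs in the untreated libraries and 12 and 10 in the anti-PD1 libraries. With enough Lpl and Apoc1, 30 anti-PD1 WT and 118 anti-PD1 KO cells had 3 marker UMIs and stayed out, and 37 and 84 had 4 and came in. Cx3cr1 stood at 367 and 772 CPM in those just outside and at 448 and 871 CPM in those just inside.

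Markers of other cell types were read beside these. The 19 monocyte and macrophage markers (18, 17, 19 and 19 detected) summed to 2662, 2257, 6176 and 5937 CPM, against 21802, 15135, 21041 and 14264 CPM in the Ccr2+ macrophages and 3135, 2511, 7838 and 2776 CPM in the other microglia. In anti-PD1 KO, and in no other library, this sum was above that of the other microglia. Ly6c2, a defining gene of blood monocytes, stood at 6.46, 0, 45.5 and 0.492 CPM. Of 15 border macrophage markers 9, 12, 12 and 14 were detected, with sums of 10974, 17489.7, 51149 and 47796 CPM, and these include Apoe, which the chosen cells expressed highly. Among the defining ones, Lyve1 had 0, 0, 0 and 2 UMIs and Cd163 0, 2, 2 and 8. Of the same markers, Mrc1 had 2, 334, 53 and 549 UMIs. It was seen in 2 of 80, 23 of 76, 20 of 338 and 206 of 706 cells. The 14 T cell markers summed to 37.8, 22.9, 5.34 and 12.8 CPM, and 8 neuronal markers to 0.816 to 6.46 CPM. The 9 natural killer markers summed to 0.983 to 22.2 CPM, 8 oligodendrocyte markers to 61.7 to 102 CPM and 8 endothelial and mural markers to 21.2 to 66.0 CPM.

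Some of these sums were above those of the Ccr2+ macrophages. The 8 neutrophil markers summed to 461, 189, 119 and 198 CPM, against 277, 262, 169 and 309.9 CPM in the other microglia and 153, 329, 86.2 and 127 CPM in the macrophages. Csf3r gave 202, 219, 765 and 1577 of their UMIs, while Ly6g and Ngp were at 0. In untreated WT the highest cell of each gene held 115 of 119 S100a8 UMIs, 111 of 116 S100a9 UMIs and 38 of 45 Cxcr2 UMIs. In untreated KO 3 of 4 measured neutrophil markers were at least 2-fold lower, where 2.68% of 5664 genes were. These were S100a8, S100a9 and Cxcr2, so the count rests largely on single WT cells. The 10 dendritic cell markers, which include the microglial gene Siglech, summed to 471, 321, 116 and 263 CPM, the 7 B cell markers, led by Ighm, to 352, 184, 63.8 and 116 CPM, and the 8 astrocyte markers, led by Slc1a3, to 135, 141, 87.1 and 117 CPM. In the other microglia these sums were higher, at 753, 834, 364 and 756, at 2356, 224, 136 and 239 and at 159.9, 229.8, 108 and 185 CPM. A doublet score marked 8, 1, 32 and 39 of the Lpl/Apoc1 cells, or 10%, 1.32%, 9.47% and 5.52%, against 6.39%, 1.74%, 7.84% and 3.50% of the other microglia. The part of such cells in the results was not tested beyond removing the marked doublets.

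Lpl/Apoc1 cells made up a larger share of microglia in KO than in WT in both pairs. Without treatment, 20.4% (16.5% to 24.7%) of WT microglia and 30.6% (25.0% to 36.8%) of KO microglia met the limit (exact Clopper-Pearson intervals). After anti-PD1 these shares were 29.6% (27.0% to 32.3%) for WT and 40.0% (37.7% to 42.4%) for KO, and the intervals did not overlap within either pair. After every microglial cell had been thinned to 2000 UMIs, which left out 8, 16, 7 and 49 shallower ones, the shares were 5.71% (3.62% to 8.52%), 10.3% (6.74% to 15.0%), 10.1% (8.44% to 12%) and 21.3% (19.4% to 23.4%). KO was again higher in both pairs, but at this equal depth the untreated intervals overlapped.

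Free RNA can give UMIs to cells that do not make a transcript. The limit on Lpl and Apoc1 was also met by 0.372%, 0.563%, 0.497% and 2.62% of T cells, which should lack both genes, at median depths of 8354, 9408, 6058 and 4046 UMIs. At 2000 UMIs per cell 0 of 1056, 0 of 530, 0 of 584 and 5 of 608 T cells met it. The share in microglia was above that in T cells in all 4 libraries. Among Ccr2+ macrophages the limit was met by 5.06%, 11.2%, 2.29% and 7.14%, again with a higher value in KO in both pairs.

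**Figure D1:**
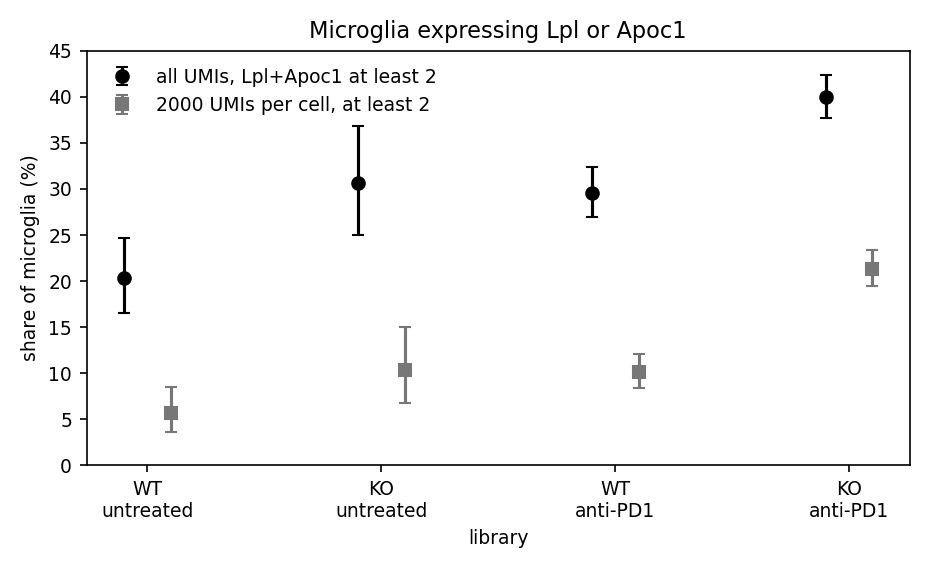
Share of microglia with at least 2 Lpl and Apoc1 UMIs (y axis, percent) in the 4 libraries (x axis), with all UMIs and after thinning to 2000 UMIs per cell, with exact 95% intervals. The KO share is above the WT share in both pairs, at 30.6% and 20.4% untreated and at 40.0% and 29.6% after anti-PD1 with all UMIs.

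Lpl and Apoc1 contributed unequally to the choice in different libraries. In the chosen cells Lpl stood at 295, 465, 238 and 644 CPM and Apoc1 at 123, 131, 505 and 753 CPM. Apoc1 was thus lowest in the untreated libraries, and Lpl in anti-PD1 WT. In single cells Lpl ran from 0 to 25, 208, 73 and 95 UMIs, around medians of 3, 3, 2 and 4. One untreated KO cell alone held 208 of the 570 Lpl UMIs of its group, and without it Lpl stood at 298 CPM there.

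By gene, 62, 53, 99 and 300 cells qualified through Lpl (at least 2 Lpl UMIs, under 2 of Apoc1), and 12, 14, 137 and 141 through Apoc1. Another 5, 7, 85 and 235 had at least 2 of each, and 1, 2, 17 and 30 had 1 of each. The limit ran through a continuous range: 47, 23, 146 and 227 microglia had 1 UMI and stayed out, and 25, 16, 72 and 114 had 2 and came in. Apoe stood at 9122, 17788, 42930.4 and 32828 CPM in those just outside and at 6782, 13888, 46422 and 37072 CPM in those just inside.

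Microglia with Lpl had Apoc1 more often than microglia without it. At 2000 UMIs per cell, Apoc1 was seen in 7.41%, 16.7%, 27.9% and 31.0% of microglia with an Lpl UMI and in 2.11%, 6.32%, 11.5% and 14.7% of those without. The exact intervals did not overlap in the anti-PD1 libraries (20.1% to 36.7% against 9.56% to 13.6% in WT, 26.7% to 35.5% against 12.8% to 16.8% in KO) and overlapped in the untreated libraries.

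Cells that qualified through Lpl and through Apoc1 differed in a limited set of genes, named here after their values were seen. At least 2-fold higher in the Lpl cells were 5.71% of 3066, 4.95% of 3270, 1.16% of 6635 and 1.83% of 7253 genes, and at least 2-fold lower 1.47%, 1.19%, 0.739% and 0.165%. Spp1, which encodes the secreted protein osteopontin, stood at 148 against 21.8, 1365 against 5.19, 3766 against 1221 and 1085 against 334 CPM in the Lpl against the Apoc1 cells. It was higher in the Lpl cells of all 4 libraries, with only 12 and 14 Apoc1 cells in the untreated ones. In the untreated libraries Spp1 was seen in only 19 of 80 and 24 of 76 Lpl/Apoc1 cells, with up to 97 and 338 UMIs in 1 cell. Of the cell cycle list, 12 of 12 and 18 of 19 measured genes were higher in the Lpl cells of the anti-PD1 libraries, with medians of 1.08 and 1.24, where 51.6% and 60.4% of all genes were. In the untreated libraries 3 of 8 and 4 of 5 were higher. Top2a, a DNA topoisomerase used in chromosome separation, stood at 42.9 against 3.79 and 44.4 against 3.86 CPM in the anti-PD1 libraries, and Mki67, a proliferation marker, at 34.0 against 3.37 and 40.5 against 8.49 CPM. Apoe was nearly level in anti-PD1 WT and lower in the Lpl cells of anti-PD1 KO, at 45375 against 46073 and 34311 against 53768 CPM. In the same libraries MHC class II genes were lower in the Lpl cells in 12 of 13 and 11 of 12 measured, with median log2 ratios of -0.17 and -0.31.

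Compared with the other microglia of the same library, the Lpl/Apoc1 cells had more of the disease-associated programme. Its median log2 ratio was 0.22, 0.42, 0.52 and 0.80, with 28 of 35, 29 of 34, 31 of 37 and 33 of 37 measured genes higher, against medians of -0.05, -0.08, -0.15 and -0.16 over all genes with at least 50 UMIs, of which 44.3%, 42.4%, 29.5% and 33.4% were higher. At least 2-fold higher were 2, 7, 6 and 15 of the list, where 0.458% of 7421, 1% of 6373, 0.52% of 9808 and 1.63% of 9819 of all genes were. The list is known to go with Lpl, and the cells were chosen by Lpl, so these counts describe the chosen cells and are not independent evidence.

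Apoe, the main lipid carrier of the brain, stood at 10630.2, 16784, 50844 and 47316 CPM in the Lpl/Apoc1 cells and at 7393, 11562, 31329 and 20508 CPM in the other microglia. It was higher in the chosen cells of every library, with log2 ratios of 0.52, 0.54, 0.70 and 1.21. Cst7, an inhibitor of lysosomal cysteine proteases, stood at 634, 329.8, 1613 and 589.7 CPM against 288, 101, 650.3 and 155 CPM, with log2 ratios of 1.14 (0.99 to 1.29), 1.71 (1.44 to 1.99), 1.31 (1.27 to 1.36) and 1.93 (1.83 to 2.03). Spp1 stood at 208, 987, 2687 and 2313 CPM against 101, 65.9, 383 and 201 CPM. Its log2 ratio in untreated KO, 3.90, was 0.66 in cells with at least 500 genes and at most 5% mitochondrial UMIs. In T cells Apoe stood at 222, 179, 5513 and 3603 CPM, Cst7 at 170, 230, 279 and 152 CPM and Spp1 at 30.9, 72.6, 473 and 467 CPM. Cst7 was seen in 65.0%, 72.2%, 67.4% and 44.6% of T cells. Whether T cells make Cst7 themselves was not tested, so its level there is not read as free RNA. The part of free RNA in the levels of these genes was not tested.

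Further genes of the ranking were higher in the chosen cells. Lgals3, which encodes the sugar-binding protein galectin-3, stood at 302, 416, 1221 and 679 CPM against 199, 156, 558 and 213 CPM. Cd36, a scavenger receptor for fatty acids and lipoproteins, stood at 115, 128, 98.1 and 79.4 CPM against 66.0, 36.0, 46.4 and 42.9 CPM. Lilrb4a, an inhibitory receptor gene, had log2 ratios of 0.99, 1.27, 0.84 and 1.60. All 3 were higher in the chosen cells of all 4 libraries, as were Serpinb6a, a serine protease inhibitor, Cd72, Rhoc, Chst2, Nceh1, a cholesterol ester hydrolase, and Hpse, the heparanase gene. Igf1, a growth factor of the programme, stood at 18.5, 131, 289.8 and 551 CPM against 13.3, 31.3, 75.8 and 124 CPM. In untreated WT 15 of its 20 UMIs came from 1 cell, and without the highest cell of each group the log2 ratio there was -0.93.

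Homeostatic genes were lower in the same cells, with median log2 ratios of -0.40, -0.54, -0.58 and -0.93 and 30 of 32, 31 of 32, 32 of 33 and 32 of 33 genes lower. At least 2-fold lower were 1, 4, 8 and 10 of them, against 2.24%, 2.48%, 3.88% and 3.75% of all genes. Slc2a5, a fructose transporter of microglia, stood at 53.5, 43.3, 6.86 and 21.1 CPM against 113, 129.9, 43.3 and 116 CPM. Selplg, a ligand for selectins, stood at 626, 520.0, 285 and 224 CPM against 1058, 1079, 656 and 721 CPM. Cst3, a secreted cystatin, stood at 9869, 7113, 8586 and 11439 CPM against 15684, 11512, 17120.3 and 22697 CPM. Among all genes the lowest in the 4 libraries included Col27a1, Gabbr1, Agmo, Il7r and Lrba, with Col27a1, a collagen gene, at 46.1, 45.7, 7.93 and 30.2 CPM against 127, 145, 33.3 and 109 CPM.

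The levels also differed along the number of Lpl and Apoc1 UMIs. From microglia with none to those with 5 or more, Siglech, a sialic acid-binding receptor, went from 667 to 347, 768 to 221, 329 to 51.8 and 607 to 104 CPM, and P2ry13, a purine receptor, from 185 to 87.7, 204 to 132, 86.0 to 31.1 and 109 to 26.6 CPM. Cst7 went from 287 to 712, 70.0 to 414, 561 to 1749 and 115 to 696 CPM. Between these ends all 3 went in the same direction in every library, while P2ry13 was uneven in between in untreated WT. Spp1 was uneven in the untreated libraries, at 101, 102, 33.7 and 418 CPM over cells with 0, 1, 2 to 4 and 5 or more UMIs in untreated WT, and at 68.4, 55.6, 1065 and 899 CPM in untreated KO.

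**Figure D2:**
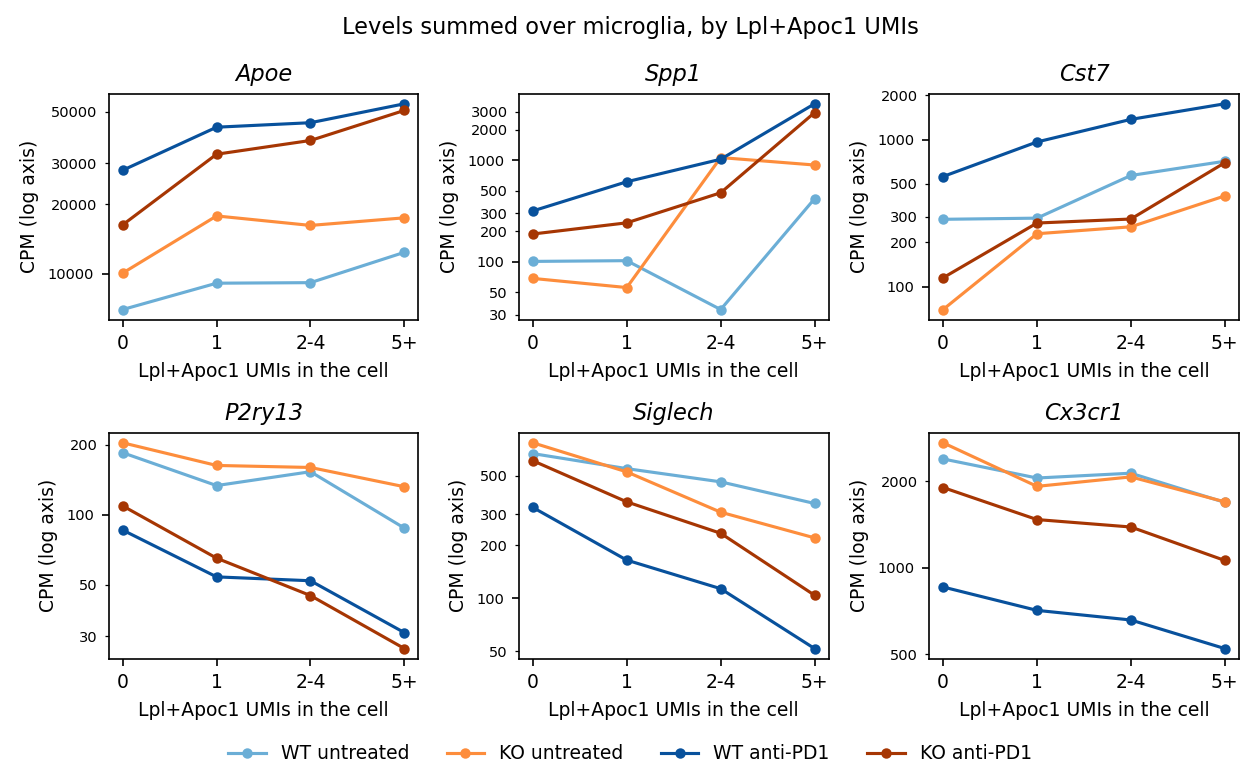
Levels of 6 genes in CPM (y axis, log scale) over the microglia of each library with 0, 1, 2 to 4 and 5 or more Lpl and Apoc1 UMIs (x axis). Cst7 is higher and Siglech lower in cells with 5 or more UMIs than in cells with none in all 4 libraries, with Siglech at 607 and 104 CPM in anti-PD1 KO.

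Metabolic and stress genes are given beside all genes, of which 55.7%, 57.6%, 70.5% and 66.6% were lower in the chosen cells. Oxidative phosphorylation genes were higher in the chosen cells in 51 of 54, 52 of 54, 41 of 54 and 50 of 54 measured, with medians of 0.24, 0.38, 0.05 and 0.31. Glycolysis and hypoxia genes had medians of 0.10, 0.24, 0.34 and 0.61, and Gapdh, a glycolytic enzyme gene, stood at 1054, 832, 806 and 842 CPM against 767, 543, 634 and 501 CPM. Lysosomal genes were higher in 29 of 39, 27 of 38, 30 of 39 and 27 of 39, with medians of 0.15, 0.17, 0.28 and 0.15 and Cd63, a tetraspanin of late endosomes, at 1187, 1851, 2408 and 1973 CPM against 838, 1112, 1370.2 and 1039 CPM. Heat shock and immediate early genes, which also respond to tissue dissociation, were lower in 29 of 30, 21 of 30, 27 of 30 and 26 of 30, with medians of -0.41, -0.23, -0.28 and -0.50. Hspa1b, an inducible chaperone that is a close copy of Hspa1a, stood at 1478, 1845, 31.1 and 123 CPM against 2667, 2930.4, 157 and 546 CPM. Interferon-stimulated genes had medians of 0.13, 0.05, -0.19 and -0.23, and lipid handling genes of 0.06, 0.01, 0.10 and 0.46. The chosen cells were deeper in every library. For the thinned ratios the cells were still chosen at full depth, so thinning leaves the choice of deeper cells in place. The part of depth in that choice was not tested for these medians.

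**Figure D3:**
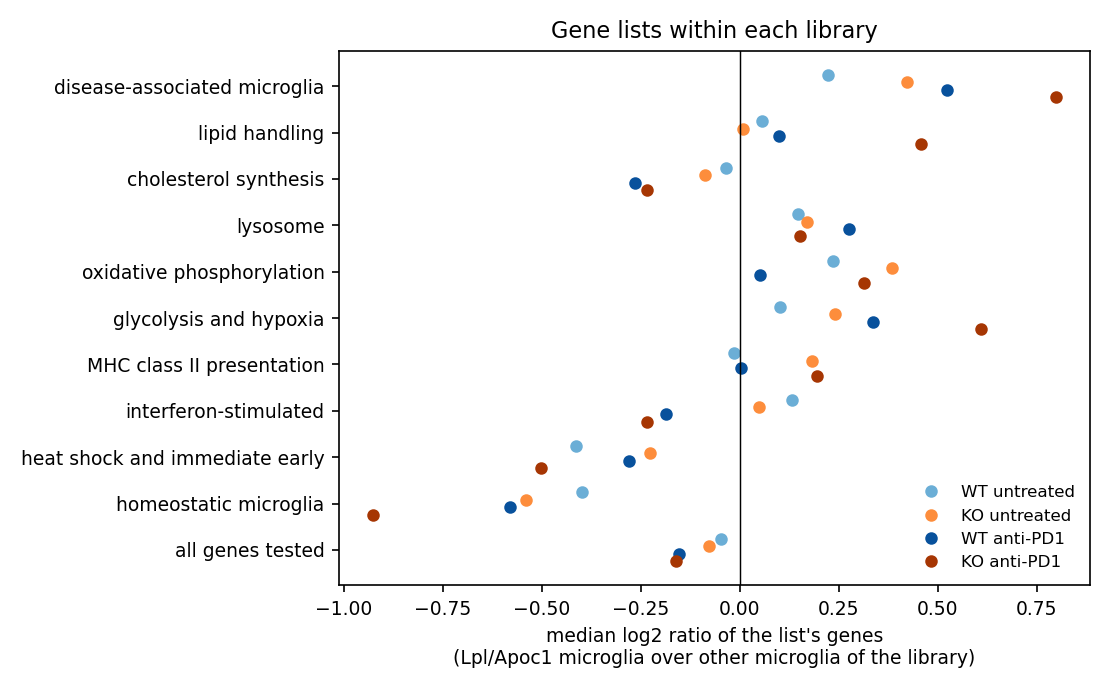
Median log2 ratio (x axis) of each gene list (y axis) between Lpl/Apoc1 microglia and other microglia, 1 point for each of the 4 libraries, with all genes tested for reference. Disease-associated genes lie between 0.22 and 0.80 and homeostatic genes between -0.93 and -0.40, while all genes lie between -0.16 and -0.05.

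The genotypes were compared within each treatment, as KO over WT. Ifnar1 (GRCm38 chromosome 16, 91485238 to 91507441, plus strand) was read in all 4 libraries, at 77.5, 91.4, 53.4 and 149 CPM in the Lpl/Apoc1 cells. It was not lower in KO. Since the deleted subunit and stretch are not given, this value checks no label.

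Interferon-stimulated genes were lower in KO Lpl/Apoc1 microglia. All 56 measured in the untreated pair and all 69 in the anti-PD1 pair were lower, with median log2 ratios of -1.67 and -2.21, against 0.03 and 0.26 for all genes tested. At least 2-fold lower were 47 and 60, where 2.68% of 5664 and 5.03% of 9645 of all genes were. In the other microglia 68 of 68 and 71 of 71 were lower, with medians of -1.99 and -2.45, and 58 and 61 at least 2-fold, against 3.12% and 7.09% of all genes. Whether the response differs between the 2 kinds of microglia was not tested.

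The genes of the list named by the ranking were Ifi27l2a, Oas2, Oas1a and Usp18. Ifi27l2a, a small interferon-induced protein gene, had 1517, 3, 2281 and 24 UMIs, in 75 of 80, 3 of 76, 313 of 338 and 15 of 706 Lpl/Apoc1 cells. Oas2, an enzyme activated by double-stranded RNA, had 75, 0, 114 and 0 UMIs, at least 28.3-fold and at least 47.2-fold lower in KO when a count of 0 is set to 3 UMIs per library. Oas1a of the same family had 70, 0, 523 and 2 UMIs, at least 26.4-fold lower in the untreated pair. Usp18, which strips the Isg15 protein from its targets, had 53, 0, 289 and 5 UMIs. The ranking chose these genes by the size of their difference in both pairs, so that they set WT and KO apart follows from the choice. Not chosen by the ranking, Isg15 stood at 522, 171, 397 and 22 CPM and Bst2, which tethers viruses to the membrane, at 974, 166, 989.8 and 173 CPM, so part of their RNA was still read in KO. Oas1a, the Ifi200 genes and the Ly6 genes have close copies, and their single values are uncertain.

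Outside the lists, the lowest genes in KO in both pairs were Ifi213, Ly6a, Ifi206, Ifi209, Ly6i and Ifitm1, of families known to be interferon-induced. Ly6a, a surface protein gene, had 1015, 36, 6190 and 218 UMIs, in 67 of 80, 17 of 76, 305 of 338 and 97 of 706 cells, with log2 ratios of -4.98 (-5.52 to -4.52) and -5.14 (-5.34 to -4.94). Ifi213, a relative of DNA sensors, had 50, 1, 268 and 3 UMIs and Ifi206 of the same family 53, 2, 164 and 0. Ifi209 had 88, 9, 198 and 30 UMIs and Ly6i 66, 6, 1243 and 191. Ifitm1, of a family that hinders viral entry, stood at 173, 10.6, 23.6 and 3.19 CPM, but 1 untreated WT cell held 169 of 187 UMIs, and without the highest cell the untreated levels were 17.2 and 9.34 CPM.

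The promoters of 3 of these genes are shown because the genes were among the lowest in KO and their upstream bases hold the motif known for the interferon-activated complex. The motif was searched as GAAANNGAAA or, on the other strand, TTTCNNTTTC in the 250 bases before each start site of RefSeq (GRCm38.p6). The sequences are Oas1a (chr5:120907526-120907775, minus strand), Ifi213 (chr1:173599273-173599522, minus strand) and Ifi206 (chr1:173491319-173491568, minus strand), 5′ to 3′ on the strand of the gene, with matches in capitals.
Oas1a: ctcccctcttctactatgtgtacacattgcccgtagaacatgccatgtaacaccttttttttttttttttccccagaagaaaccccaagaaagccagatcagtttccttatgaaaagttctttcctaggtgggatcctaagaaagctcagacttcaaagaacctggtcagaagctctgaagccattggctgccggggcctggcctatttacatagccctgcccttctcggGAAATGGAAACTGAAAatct
Ifi213: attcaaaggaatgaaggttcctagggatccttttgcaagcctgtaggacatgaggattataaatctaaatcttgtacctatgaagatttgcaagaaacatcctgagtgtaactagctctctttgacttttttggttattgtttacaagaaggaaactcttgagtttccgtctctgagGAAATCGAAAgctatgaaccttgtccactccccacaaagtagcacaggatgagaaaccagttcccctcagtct
Ifi206: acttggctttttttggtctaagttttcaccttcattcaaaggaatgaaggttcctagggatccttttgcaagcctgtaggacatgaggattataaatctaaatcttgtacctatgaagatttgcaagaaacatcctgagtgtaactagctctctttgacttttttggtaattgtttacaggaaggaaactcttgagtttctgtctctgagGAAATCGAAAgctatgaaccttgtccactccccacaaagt
Oas1a held 2 overlapping matches that ended 4 bases before the start site, Ifi213 had 1 at 63 bases and Ifi206 had 1 at 30 bases. Of the interferon-stimulated list, 20 of 59 genes with a promoter in the table held a match (33.9%), against 283 of 7943 genes with at least 50 UMIs in the chosen cells (3.56%) and 978 of all 32851 promoters (2.98%). Ifi209, Ifitm1 and Cxcl13 had no match in this window. A match is a description of the letters and not a measured binding site.

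Antigen presentation genes differed unevenly between the pairs, where 47.1% and 36.1% of all genes were lower in KO. Of the MHC class I presentation genes, 19 of 23 and 21 of 23 were lower (medians -0.69 and -1.18). H2-Q7, a class I heavy chain gene with close copies, stood at 745, 207, 849 and 197 CPM, and Psmb9, a subunit of the immunoproteasome, at 232, 109, 356 and 142 CPM. Genes linked to interferon gamma, a cytokine with a receptor of its own, were lower in 14 of 22 and 26 of 27 (medians -0.20 and -1.31). Irgm1, a GTPase of this group, stood at 185, 79.2, 115 and 22.1 CPM. MHC class II genes were lower in 5 of 12 and 11 of 13 (medians 0.10 and -0.86). Cd74, the class II invariant chain, stood at 9136, 12099.6, 28202 and 15059.6 CPM and was highest in anti-PD1 WT.

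**Figure D4:**
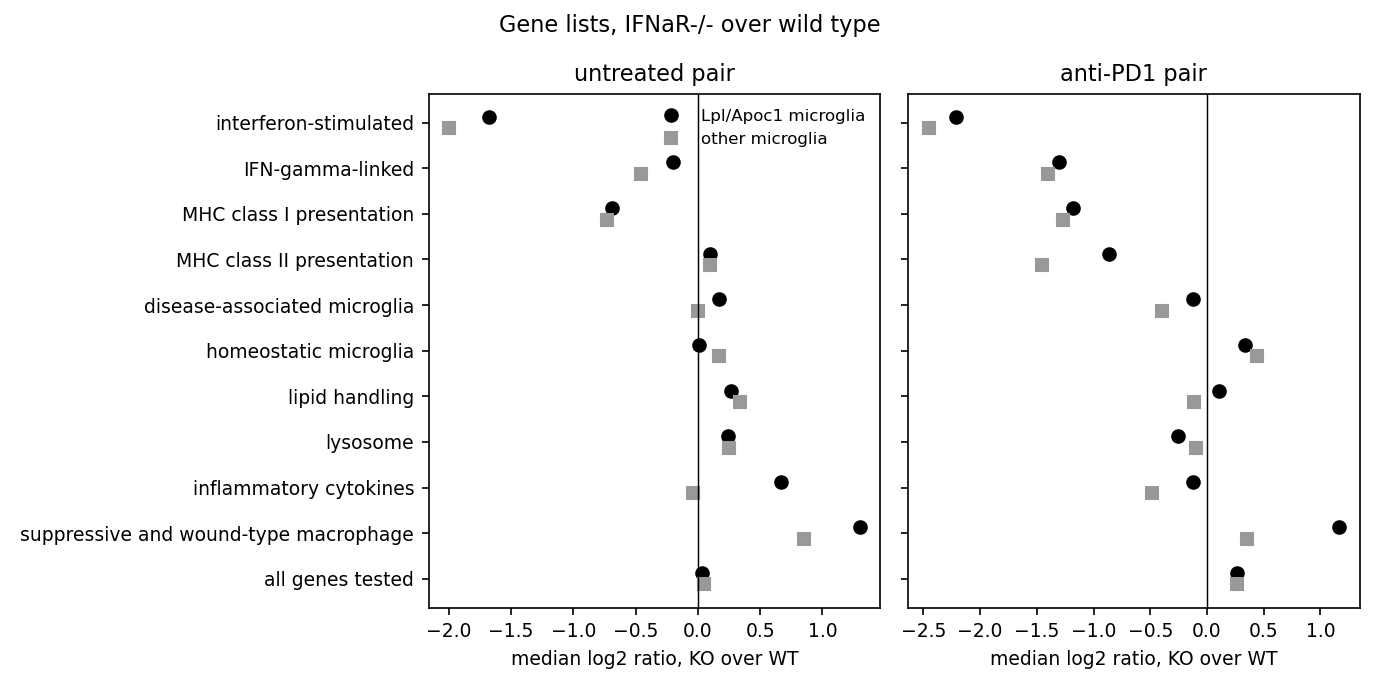
Median log2 ratio of KO over WT (x axis) for each gene list (y axis) in Lpl/Apoc1 microglia and in other microglia, for the untreated and the anti-PD1 pair. In the Lpl/Apoc1 cells interferon-stimulated genes lie at -1.67 and -2.21 and the suppressive and wound-type list at 1.30 and 1.17.

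The list for suppressive and wound-type macrophages was read at higher levels in the KO cells, and part of this RNA was also read in T cells, given below. Its medians were 1.30 and 1.17, with 17 of 19 and 23 of 27 higher and 11 and 14 at least 2-fold higher, against 2.65% and 11.8% of all genes. In the other microglia the medians were 0.85 and 0.35, against 0.05 and 0.27 for all genes, with 8 and 8 at least 2-fold higher against 1.86% and 12.3% of all genes. In the anti-PD1 pair 7 of 26 were at least 2-fold lower in the other microglia, against 7.09% of all genes. Ccl24, a chemokine for eosinophils, stood at 9.23, 872, 1.37 and 167 CPM, in 9 of 80, 40 of 76, 8 of 338 and 199 of 706 cells. Mrc1, the mannose receptor, stood at 1.85, 273, 8.08 and 67.5 CPM, in 2 of 80, 23 of 76, 20 of 338 and 206 of 706 cells. Arg1, which breaks down arginine, stood at 13.8, 325, 162 and 428 CPM, in 1 of 80, 17 of 76, 60 of 338 and 241 of 706 cells. Each was higher in KO in both pairs, as were Chil3, a chitinase-like protein gene, at 0, 54.7, 0.915 and 12.9 CPM, and Ccl8, a chemokine for monocytes, at 7.38, 258, 500.4 and 1317 CPM.

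T cells, which should lack these transcripts, show how much of them free RNA or doublets can give. In T cells Ccl24 stood at 22.8, 118, 15.1 and 599 CPM, Mrc1 at 4.83, 33.2, 18.5 and 116, Arg1 at 16.6, 28.2, 562 and 691, Ccl8 at 3.55, 18.0, 327 and 1579.6 and Chil3 at 2.37, 38.8, 3.66 and 193. At 2000 UMIs per cell, Ccl24 was seen in 22.4% (13.6% to 33.4%) of Lpl/Apoc1 cells and 4.34% (2.77% to 6.44%) of T cells in untreated KO, Arg1 in 11.8% (5.56% to 21.3%) and 2.08% (1.04% to 3.68%), and Ccl8 in 9.21% (3.78% to 18.1%) and 0.566% (0.117% to 1.65%). Only in these 3 of the 5 genes was the untreated KO share above that of T cells with no overlap of the intervals, and Mrc1, at 6.58% (2.17% to 14.7%) and 3.77% (2.32% to 5.77%), overlapped. In anti-PD1 KO the shares were 10.8% (8.60% to 13.3%) and 16.9% (14.0% to 20.2%) for Ccl24, 11.9% (9.63% to 14.6%) and 9.54% (7.32% to 12.2%) for Mrc1, 21.6% (18.6% to 24.8%) and 23% (19.7% to 26.6%) for Arg1 and 30.7% (27.3% to 34.2%) and 29.9% (26.3% to 33.7%) for Ccl8. None was above the T cells there beyond the intervals, and in both WT libraries the same held for Ccl24, Mrc1, Arg1 and Chil3. At equal depth these values cannot be told apart from the T cell background, so they are not read as expression. Before thinning the T cells of anti-PD1 KO were shallower, at a median of 4046 against 10297 UMIs. With all UMIs the shares there were 28.2% and 26% for Ccl24, 29.2% and 17.1% for Mrc1, 34.1% and 31.1% for Arg1, 58.2% and 46.3% for Ccl8 and 3.54% and 5.54% for Chil3. The measured genes of the list were also higher in KO in T cells, in 17 of 19 and 18 of 27, with medians of 0.80 and 0.30. The share of all genes higher in KO was not taken in the T cells, and the part of free RNA in the list's difference was not tested.

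Single cells carried much of these levels in untreated KO. The highest cell held 390 of 1068 Ccl24 UMIs, 156 of 334 Mrc1 UMIs, 211 of 316 Ccl8 UMIs and 59 of 67 Chil3 UMIs. Without the highest cell the untreated KO levels were 576 CPM for Ccl24, 151 for Mrc1, 277 for Arg1, 89.2 for Ccl8 and 6.84 for Chil3. The 15 Arg1 UMIs of untreated WT were all in 1 cell.

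Border macrophage markers share Mrc1, Cd163, Lyve1, Folr2 and F13a1 with this list. Of the measured ones 4 of 4 and 7 of 10 were higher in KO, with medians of 0.64 and 1.19. Of all genes 47.1% and 36.1% were lower in KO, so the count of the anti-PD1 pair is near that of all genes. The part of these markers in the result was not tested. Ccr2+ macrophages held more of the same genes, with Ccl24 at 317, 3652, 47.8 and 2579.8 CPM, Mrc1 at 55.8, 1013, 43.3 and 479 CPM and Arg1 at 311, 804, 1654 and 2364 CPM. The genes of the suppressive list measured in the Lpl/Apoc1 cells were higher in KO macrophages too, in 17 of 19 and 20 of 27. The medians there were 1.37 and 1.66, so the difference was not particular to the Lpl/Apoc1 cells. The share of all genes higher in KO was not taken in the macrophages. Among the 56, 60, 195 and 533 Lpl/Apoc1 cells with at most 2 UMIs over Ly6c2, Plac8, Vcan, Chil3, Itga4, Fn1 and Thbs1, Ccl24 stood at 11.1, 216, 0.956 and 77.5 CPM, Mrc1 at 3.17, 30.9, 7.33 and 54.2 CPM and Arg1 at 0, 91.6, 25.5 and 185 CPM. KO was higher for each in both pairs there too, and the list medians were 0.97 and 0.54. Chil3, Fn1 and Thbs1 belong to both the limit and the list, so these medians are not independent of the limit. The limit kept 70%, 78.9%, 57.7% and 75.5% of the cells, and the anti-PD1 levels of Ccl24, Mrc1 and Arg1 stayed below those of T cells.

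**Figure D5:**
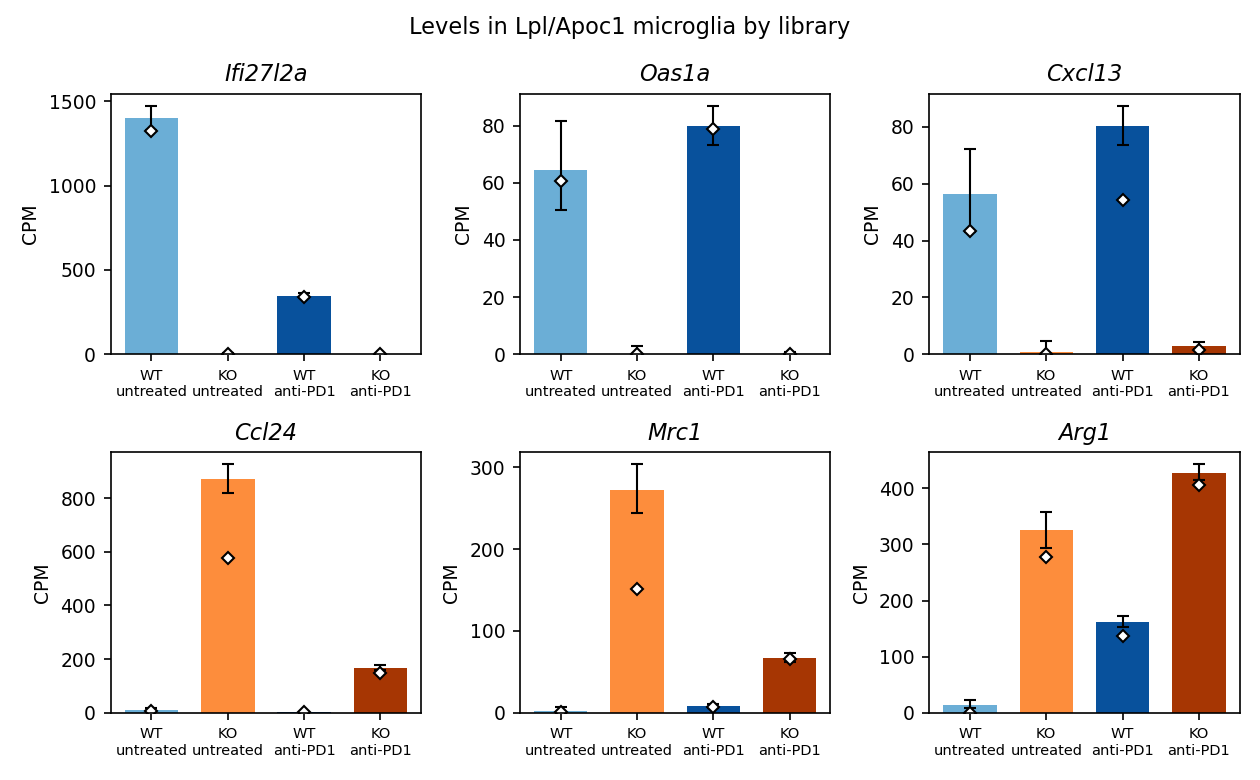
Levels in CPM (y axis) of 6 genes in the Lpl/Apoc1 microglia of the 4 libraries (x axis), as bars with exact 95% Poisson intervals for counting error and as diamonds for the level without the highest cell. The anti-PD1 levels of Ccl24, Mrc1 and Arg1 are below those of T cells. Ccl24 stands at 872 CPM in untreated KO and 9.23 CPM in untreated WT, and Ifi27l2a at 2.45 and 1400.2 CPM.

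Genes of the chemokine list and of the complement and phagocytosis list went in both directions. Cxcl13, which attracts B cells, had 61, 1, 526 and 24 UMIs, in 10 of 80, 1 of 76, 44 of 338 and 7 of 706 cells. Ccl7, which attracts monocytes, stood at 282, 55.5, 184 and 40.9 CPM. Cfb, a factor of the alternative complement pathway, had 52, 3, 1393 and 49 UMIs, with 2.64, 0, 229 and 25.7 CPM in T cells against 48.0, 2.45, 212 and 6.02 CPM, and Serping1, an inhibitor of the classical pathway, 69, 11, 352 and 23. Cxcl13 had no UMI in T cells. These 4 genes were lower in KO in both pairs. Gas6, a bridging ligand for the uptake of dying cells, was higher, at 167, 233, 75.5 and 135 CPM. The complement and phagocytosis list had medians of -0.19 and -0.19, and the chemokine list of 0.19 and 0.32.

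Disease-associated and lipid genes had small medians between the genotypes. All genes tested had medians of 0.03 and 0.26, and 47.1% and 36.1% of them were lower in KO. Disease-associated genes had 0.17 and -0.13, with 21 of 34 and 14 of 37 higher, so after anti-PD1 their median lay below that of all genes. Cst7 was lower in KO in both pairs, with log2 ratios of -0.94 (-1.12 to -0.76) and -1.45 (-1.50 to -1.40). Itgax, an integrin of the programme, was higher, at 156, 249, 176 and 264 CPM. Apoe and Spp1 were higher in KO in the untreated pair and slightly lower in the anti-PD1 pair, with log2 ratios of 0.66 and -0.10 for Apoe and 2.25 and -0.22 for Spp1. Lipid handling genes had medians of 0.27 and 0.11. Npc1, which moves cholesterol out of lysosomes, stood at 96.0, 156, 46.2 and 88.1 CPM, and Soat1, which esterifies cholesterol, at 164, 247, 129 and 240.2 CPM, both higher in KO. Tspo, an outer mitochondrial membrane protein gene, was lower, at 441, 278, 624 and 259 CPM. Of the homeostatic genes, Fcrls was higher in KO at 185, 339, 120.5 and 304 CPM and Olfml3 lower at 665, 452, 435 and 192 CPM, and the list had medians of 0.01 and 0.33.

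For such small medians the scaling of the anti-PD1 pair matters. TMM and DESeq2 factors moved every log2 ratio of that pair by -0.26 and -0.27, and the genes past 2-fold went from 485 lower and 1141 higher to 850 and 531 with TMM and to 871 and 522 with DESeq2. Relative to the median of all genes, 0.26, the lipid handling, cholesterol synthesis and heat shock lists of that pair turned negative. With TMM the interferon-stimulated list stood at -2.47 and the suppressive list at 0.91.

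Outside the lists, the highest genes in KO in both pairs were Mid1, Arhgap6, Hes1, Hip1, Tmem176a and Slc30a4. Mid1, a microtubule-bound ubiquitin ligase, stood at 20.3, 406, 14.3 and 195 CPM, and at 27.1, 392, 15.7 and 208 CPM in Ccr2+ macrophages. Arhgap6, a regulator of small GTPases, stood at 3.69, 46.5, 0.915 and 834 CPM, and at 3.97, 35.9, 1.57 and 783 CPM in the macrophages. Both differences were thus of similar size in cells that are not microglia. Hes1, a repressor downstream of Notch, stood at 29.5, 166, 1.07 and 5.53 CPM, and Tmem176a at 39.7, 137, 32.2 and 139 CPM.

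Anti-PD1 and untreated libraries were set side by side within each genotype. Of all genes, 20.1% of 8319 were at least 2-fold lower after anti-PD1 and 7.72% higher in WT, and 11.2% of 8973 and 10% in KO. With TMM factors the WT counts went from 1669 lower and 642 higher to 943 and 990, and with DESeq2 factors to 940 and 991, so the balance turned, while KO went from 1004 lower to 624 and 620. Disease-associated genes were higher in 29 of 37 and 33 of 37 (medians 0.73 and 0.78) and homeostatic genes lower in 29 of 32 and 26 of 32 (medians -0.61 and -0.76), against -0.31 and -0.21 for all genes. Most genes were thus lower here, and the homeostatic counts are not read by themselves. TMM factors raised every log2 ratio by 0.30 in WT and 0.19 in KO. Gpnmb, a lysosomal glycoprotein gene of the disease-associated list, stood at 46.1, 62.0, 779 and 678 CPM.

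The most extreme genes of this contrast differed in the same direction over all kept cells. Apoc2, whose product activates lipoprotein lipase, had 0, 0, 1036 and 1271 UMIs in the Lpl/Apoc1 cells and 10, 10, 31564 and 10824 over all kept cells. Il31ra had 2, 1, 2554 and 3073 and 42, 95, 65128 and 23848, and Ptp4a1 120, 232, 8 and 27 and 7853, 6128, 198 and 169. Fam89b and Nme2 were likewise high, and AC160336.1, AW011738 and Hist1h2ap low, in the anti-PD1 Lpl/Apoc1 cells. The untreated files name Cell Ranger 3.1.0 with 31053 genes and the anti-PD1 files 7.2.0 with 32285, and the part of this in these genes was not tested.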

How the data were processed

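The 4 deposited matrices hold raw UMI counts per gene and barcode, which the authors did not normalize. Per the file headers they were made with Cell Ranger 3.1.0 (untreated) and 7.2.0 (anti-PD1), and the submitters' processing notes name mm10 and GRCm38. Settings for intronic reads and cell calling are not given in the sources used here. The 30406 genes in both feature lists were used. Total counts per library ranged from 32410040 to 94732545 UMIs.

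Counts were summed over the chosen cells of a library and scaled to CPM. For log2 ratios 0.5 was added to each sum as a pseudocount, a gene needed 50 UMIs or more over both groups, and a gene counted as called at 2-fold. Intervals at 95% were exact Poisson for levels, Clopper-Pearson for shares and conditional binomial for ratios, and a count of 0 had a floor of 3 UMIs. Comparison T cells had at least 4 Cd3 chain UMIs and none of the 5 microglial markers, and comparison macrophages at least 2 Ccr2 UMIs, at least 1 of Lyz2, and at most 1 over the microglial markers and 1 over the Cd3 chains. Scrublet (scanpy 1.11.5) marked 73, 5, 2 and 0 cells by its automatic threshold, so the highest scores at 0.8% per 1000 barcodes were taken as doublets, kept in the values reported and removed in an alternative. Python 3.11.15, numpy 2.4.6, scipy 1.17.1, pandas 2.3.3, R 4.3.3, edgeR 4.0.16 (TMM) and DESeq2 1.42.0 (size factors) were used, and the ratios were tested on simulated data. No differential test was run, because each group is 1 library.

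The cells and the 17 gene lists and 11 marker lists were chosen with earlier results of these data known. Named genes were up to 4 per list and the 6 or 10 most extreme of all genes (for anti-PD1 against untreated, 4 each way) with the same direction in every pair or library, ranked by the smallest absolute log2 ratio. Receptor segment, mitochondrial, ribosomal, haemoglobin and numbered genes, Xist, Tsix and Y-linked genes were left out beyond the lists, while other X-linked genes (Mid1 and Arhgap6 among them) stayed in. Genes named for their known role (Isg15, Bst2, Cx3cr1, Siglech, P2ry13, Igf1, Cd74, Gpnmb and cell type markers) and those between Lpl and Apoc1 cells fall outside that rule, and a few genes that it names are not reported here. Alternatives were stricter cell filters, doublets removed, other limits on markers and on Lpl and Apoc1, equal weight per cell, thinning to 2000 UMIs, other scaling factors, and a minimum of 10 UMIs or none. Leaving out single cells and limiting monocyte UMIs were chosen after seeing the data, as was the T cell background of single genes.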

Additional observations from a re-analysis of the deposited data

Results flagged for a closer look

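In the Lpl/Apoc1 microglia 10 of 17 gene lists lay on opposite sides of the all-gene median in the 2 genotype pairs, 3 of them by at least 0.2 in both (KO over WT, list median minus the median of all genes, log2 scale), and whether the pairs differ was not tested. Lysosomal genes lay at 0.21 untreated and at -0.52 after anti-PD1. Inflammatory cytokine genes lay at 0.63 and -0.38. Their plain median after anti-PD1, -0.12, was 0.21 in cells with few monocyte UMIs, and Tnfaip3, a brake on NF-kappaB signalling, was higher in KO in both pairs, at 114, 393, 294 and 503 CPM. Heat shock and immediate early genes lay at 0.40 and -0.23. The kind of library also differs between the pairs, and its part was not tested.

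Barcodes that failed the cell filter and met the rest of the microglial rule held Lpl and Apoc1 too. At least 2 UMIs were found in 5 of 32 such barcodes of untreated WT, 15.6% (exact interval 5.28% to 32.8%), and in 18 of 65 of untreated KO, 27.7% (17.3% to 40.2%). In anti-PD1 KO it was 0 of 3. The shares in the kept microglia, 20.4% and 30.6%, lie within these intervals.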

How the results depend on the processing

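No paired analysis was possible because each group is 1 library and the labels give no replicate numbers. An additive fit over genotype and treatment, which would leave a single residual degree of freedom, was not run. Intervals reflect counting only, and the untreated groups of 80 and 76 cells limit low genes most. Alternative settings that left under 20 cells in a group (such as Apoc1 alone in the untreated pair) gave no ratio. The direct comparison of Lpl and Apoc1 cells had no such limit, and its untreated Apoc1 groups held under 20 cells. Of 1127 list medians recomputed, 1004 stayed within their tolerance, 122 moved past it and 1 reversed. Of 4108 single-gene values 3079 stayed, 1027 moved and 2 reversed. A change of sign was called a reversal only for genes at least 2-fold different at first. For list medians it was so called only where the tolerance lay wholly on 1 side of no change. Other changes of sign are among the values that stayed or moved, so these counts do not give the number of changed directions. The interferon-stimulated median ran from -1.96 to -1.42 untreated and from -2.48 to -1.81 after anti-PD1, and the suppressive median from 0.46 to 2.24 and from 0.54 to 1.29. The cause of the changes below was not tested.

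The share of Lpl/Apoc1 cells (20.4%, 30.6%, 29.6% and 40.0% in untreated WT, untreated KO, anti-PD1 WT and anti-PD1 KO) was 9.92%, 17.3%, 20.2% and 29.7% with at least 4 UMIs, 32.3%, 39.9%, 42.4% and 52.9% with at least 1, 4.33%, 8.47%, 19.4% and 21.3% by Apoc1 alone, and 5.71%, 10.3%, 10.1% and 21.3% after thinning. By Lpl alone it was 24.2%, 16.1% and 30.3% in the last 3 libraries, with stricter cells 15.2% in untreated WT, and with a marker sum of at least 8 35.2% in anti-PD1 KO.

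Counts of genes past 2-fold, lower then higher, depended on the filters. KO over WT untreated (152 and 150) gave 29 and 30 thinned, 624 and 536 with at least 10 UMIs, 2104 and 1688 with no minimum, and 85 lower with few monocyte UMIs. KO over WT after anti-PD1 (485 and 1141) gave 252 and 741 thinned, 734 and 1735 with at least 10 UMIs, 1973 and 3839 with none, 850 and 531 with TMM, and 871 and 522 with DESeq2. Against other microglia, untreated WT (166 and 34) gave 97 and 21 thinned, 608 and 252 with at least 10, 1173 and 1281 with none, 286 and 73 with equal weight per cell, 276 lower with stricter cells and 54 higher with a marker sum of at least 8. Untreated KO (158 and 64) gave 46 and 25 thinned, 735 and 326, 2675 and 1355, and 247 and 137 with equal weight. Anti-PD1 WT (381 and 51) gave 223 and 31 thinned, 948 and 171, 3288 and 1187, and 77 and 79 higher with TMM and DESeq2. Anti-PD1 KO (368 and 160) gave 904 and 332, 3047 and 1726, 229 and 256 with TMM, and 231 and 254 with DESeq2. Anti-PD1 over untreated in WT (1669 and 642) gave 359 and 289 thinned, 943 and 990 with TMM, and 940 and 991 with DESeq2. In KO (1004 and 899) it gave 393 and 582 thinned, and 624 and 620 lower with TMM and DESeq2.

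The homeostatic median against other microglia was -0.56 in untreated WT with stricter cells, and -0.43 and -0.42 in anti-PD1 WT with TMM and DESeq2. Reversed values were Socs1, a cytokine signalling inhibitor, at 0.074 KO over WT untreated after thinning (from -1.06), the cell cycle median of anti-PD1 WT at 0.041 after thinning (from -0.23), and Tgfbi, a matrix protein gene, at 0.34 in untreated WT with a marker sum of at least 8 (from -1.78).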
